A study of Caenorhabditis elegans with 6 samples.

Results

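The 9 genes described here build the meiotic chromosome axis and the synaptonemal complex of Caenorhabditis elegans. They are him-3, htp-1, htp-2, htp-3, rec-8, syp-1, syp-2, syp-3 and syp-4, chosen by the role of their products and matched by symbol to gene identifiers with the WBcel235 annotation. All 9 of them were found among the 22185 genes in the count tables. The measurement was the number of 22G-RNAs antisense to the exons of each gene in 6 small RNA libraries of whole gravid adults, collected 63 hours after plating. The mutant libraries came from worms of genotype lotr-1(xf58) I, lotr-1(xf60) I and lotr-1(xf61) I, with 1 library per allele, and the controls were 3 libraries of wild-type N2. Each allele is a deletion of several exons, in-frame in xf58, made by CRISPR/Cas9 in N2 and outcrossed, and 1 strain stands for each of them. The study treated the 3 alleles as triplicates. Allele and worm population were one and the same here, so their effects on a library cannot be told apart.

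In meiotic prophase, sister chromatids held by cohesin are organized along a proteinaceous axis, and the synaptonemal complex then zips the axes of paired homologs together. In C. elegans the axis holds REC-8, the kleisin subunit of a meiotic cohesin, and the HORMA-domain proteins HTP-3, HIM-3, HTP-1 and HTP-2. SYP-1, SYP-2, SYP-3 and SYP-4 form the central region between the axes. 22G-RNAs are short antisense RNAs that RNA-dependent RNA polymerases make on target transcripts. They are loaded into Argonautes, among them the WAGO proteins, which silence their targets, and CSR-1, which binds 22G-RNAs of genes expressed in the germline. LOTR-1 is a LOTUS and Tudor domain protein of the Z granule, a germ granule compartment next to P granules.

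The libraries held 3706296, 4103267 and 4317624 22G-RNA counts in xf58, xf60 and xf61, and 3787389 to 4520488 in wild-type. Normalized counts are scaled with TMM factors, which were 0.657 to 0.843 in the mutants and 1.36 to 1.39 in wild-type. The targeted gene lotr-1, on chromosome I, had 88, 20 and 47 counts in xf58, xf60 and xf61, against 245, 293 and 275 in wild-type, but part of its sequence is deleted in the mutants, so this does not measure a change on the rest of the gene. Wild-type libraries resembled one another far more than the mutant libraries did, with a chi-square per degree of freedom of 9.997 to 64.2 between mutant pairs and of 1.58 to 2.02 between wild-type pairs. The 22G-RNAs antisense to marker genes of other cells were summed as normalized counts. The 6 intestinal yolk genes had 49.8 to 159 in the mutants and 32.1 to 38.6 in wild-type, and 1 of them was tested and up-regulated. The 3 body wall muscle genes had 4.81 to 8.30 in the mutants and 32.1 to 43.5 in wild-type, and 1 of them was tested and down-regulated. Since 2 of these 3 genes had a mean under 3 counts, their sum is mostly that of 1 gene. The 6 oocyte and embryo genes, all tested and none called, had 615 to 689 in the mutants and 712 to 726 in wild-type. The 7 sperm genes had 46.5 to 80.7 in the mutants and 55.2 to 69.6 in wild-type, with 1 of 2 tested genes up-regulated and the other down-regulated. Of these 7 genes, 4 had a mean under 3 counts, and spe-38 was at 0 in every wild-type library. These are small RNAs and not mRNAs, so the makeup of the tissue was not measured, and fewer germ cells could not be told apart from fewer 22G-RNAs per cell. The part of these differences in the values below was not tested.

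None of the 9 genes had deregulated 22G-RNA levels in the lotr-1 mutants. Deregulated loci were those with a change of more than 2-fold and a Benjamini-Hochberg adjusted p under 0.1 in edgeR's quasi-likelihood test, which held for 36.4% of the 9285 loci tested (18.8% up-regulated, 17.6% down-regulated). All 9 genes passed the filter on low counts. Their log2 fold changes lay between −0.52 and 0.34 with a median of 0.22, whereas the median over all tested loci was 0.01. The median absolute log2 fold change was 0.25 for the 9 genes and 0.71 for all tested loci. One gene, syp-1, had an adjusted p under 0.1 with a change under 2-fold, where 58.9% of all tested loci had such a p at any fold change. It was also the 1 gene of the 9 whose mutant and wild-type libraries did not overlap, being lower in the mutants, against 61.8% of all tested loci (32.2% lower in the mutants, 29.7% higher). DESeq2's Wald test likewise called 0 of the 9, against 36.7% of all tested loci. It gave an adjusted p under 0.1 for syp-1 alone, against 55.3% of all tested loci. At an unadjusted p under 0.05, edgeR also gave 1 of the 9 genes, syp-1, against 57.1% of all tested loci.

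**Figure D1:**
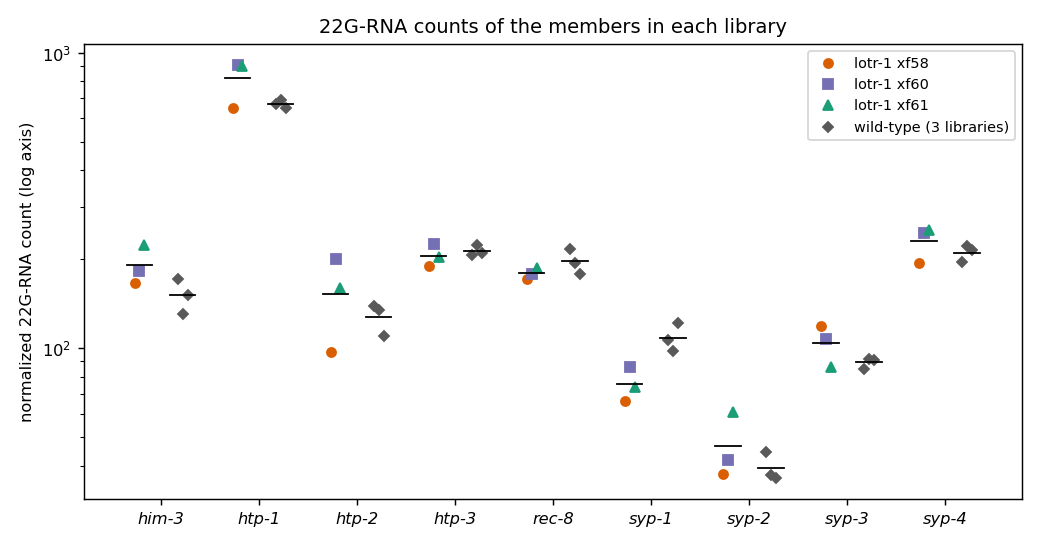
Normalized 22G-RNA counts (log axis) of the 9 genes in each library, with the lotr-1 alleles left of the wild-type libraries of each gene and a bar at each group mean. At syp-1 the mutant libraries, with 66.4 to 86.5, lie below all wild-type libraries, with 97.6 to 121, and at the other genes the groups overlap.

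None of the 4 HORMA-domain genes was called, and their log2 fold changes with TMM factors lay between −0.05 and 0.34. him-3 (chromosome IV, 6977508 to 6978765), whose product is a core axis component needed for synapsis, had 166, 183 and 224 normalized counts in xf58, xf60 and xf61, against 171, 130 and 151 in wild-type. Its xf60 and xf61 libraries were above all wild-type libraries, while xf58 lay within their range. The log2 fold change was 0.34 (standard error 0.18, 95% interval −0.07 to 0.76, adjusted p = 0.146).

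htp-1 (chromosome IV, 5390189 to 5391557), which encodes a HORMA protein that links pairing to synapsis and protects cohesion between sister chromatids, had the most 22G-RNAs of the 9 genes. It had 651, 910.2 and 898 normalized counts in xf58, xf60 and xf61, against 669, 694 and 649 in wild-type. xf60 and xf61 were thus above every wild-type library and xf58 was not, and the log2 fold change was 0.29 (standard error 0.17, 95% interval −0.12 to 0.69, adjusted p = 0.198). Its close paralog htp-2 (chromosome IV, 6419522 to 6420898) had 96.8, 200.3 and 160.0 normalized counts in xf58, xf60 and xf61, against 138, 134 and 110 in wild-type. Here the alleles fell on both sides of the wild-type libraries, with xf58 below and xf60 and xf61 above them. With a standard error of 0.26, the largest of the 9 genes, the log2 fold change of htp-2 was 0.25 (95% interval −0.36 to 0.87, adjusted p = 0.449).

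htp-3 (chromosome I, 4827072 to 4829791) encodes the axis protein that recruits the other HORMA proteins. Its normalized counts were 189, 224 and 203 in xf58, xf60 and xf61, against 206, 223 and 209 in wild-type. xf58 and xf61 lay below all wild-type libraries and xf60 just above them, within a narrow range, and the log2 fold change of −0.05 had a 95% interval of −0.37 to 0.27 (adjusted p = 0.774). With TMM factors, a change of the size of the 2-fold cutoff lay outside this interval, as it did for the intervals of all 9 genes. These intervals do not cover the choice of scaling. With total counts, syp-1 at −1.43 and rec-8 at −1.03 were past 2-fold.

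The cohesin gene rec-8 (chromosome IV, 13349122 to 13353193) had the smallest spread between alleles. Its normalized counts were 171, 178 and 187 in xf58, xf60 and xf61, against 217, 194 and 178 in wild-type. xf58 was below all wild-type libraries and the other alleles lay in the lower part of their range, and the log2 fold change was −0.14 (standard error 0.14, 95% interval −0.46 to 0.19, adjusted p = 0.444). The SD of its log2 values was 0.06 over the mutant libraries and 0.14 over the wild-type libraries.

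Of the 4 synaptonemal complex genes, syp-1 was lower in all alleles. syp-1 (chromosome V, 16404274 to 16407701) encodes a coiled-coil protein that spans the central region. It had 66.4, 86.5 and 73.6 normalized counts in xf58, xf60 and xf61, against 106, 97.6 and 121 in wild-type. Every allele was below every wild-type library, and the log2 fold change was −0.52 (standard error 0.17, 95% interval −0.92 to −0.13, adjusted p = 0.0359), under the 2-fold cutoff. Leaving out 1 library at a time gave adjusted p-values of 0.0261 to 0.126, of which the one above 0.1 was without wild-type replicate 3 (log2 fold change −0.44). The exons of syp-1 overlap those of F13A7.14 on the same strand over 517 bases, so that antisense reads in this stretch could not be assigned to either gene by position. Whether such reads were dropped or counted for both genes is not given in the sources used here. The counts and levels of syp-1 therefore either leave out this stretch or share its reads with F13A7.14, and the values of the 2 genes are not independent if they share them. F13A7.14 had 83.0, 68.9 and 73.6 normalized counts in xf58, xf60 and xf61, against 103, 95.5 and 97.2 in wild-type. Its alleles were thus below wild-type as well (log2 fold change −0.39, adjusted p = 0.0579), and its part in the value of syp-1 was not tested.

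syp-2 (chromosome V, 5536487 to 5537717), which encodes a smaller central region protein, had 37.3, 41.7 and 60.9 normalized counts in xf58, xf60 and xf61, against 44.3, 37.2 and 36.2 in wild-type. It rested on the fewest reads of the 9 genes, with 27, 26 and 43 counts in xf58, xf60 and xf61, against 58, 53 and 44 in wild-type. A count of 26 has an exact 95% Poisson interval of 16.98 to 38.1, which covers counting error only. xf61 was above all wild-type libraries and the other alleles were within their range, and the log2 fold change was 0.25 (standard error 0.23, 95% interval −0.28 to 0.78, adjusted p = 0.389).

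For syp-3 (chromosome I, 8663045 to 8664445), also a central region gene, the normalized counts were 119, 107 and 86.4 in xf58, xf60 and xf61, against 84.9, 92.0 and 91.4 in wild-type. xf58 and xf60 were above all wild-type libraries and xf61 within their range, and this was the 1 gene of the 9 with its highest mutant value in xf58 (log2 fold change 0.22, standard error 0.16, 95% interval −0.16 to 0.60, adjusted p = 0.293). syp-4 (chromosome I, 6847511 to 6849923), whose product is needed to load the other SYP proteins, had 194, 245 and 251 normalized counts in xf58, xf60 and xf61, against 195, 221 and 215 in wild-type. xf58 lay just below the lowest wild-type library and the other alleles above the highest, with a log2 fold change of 0.13 (standard error 0.16, 95% interval −0.24 to 0.49, adjusted p = 0.520). The transcripts of him-3 and syp-3 overlap genes on the opposite strand by 24 and 61 bases, and since counting was by strand, these partners do not enter the counts.

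The sign of the change depended on how the libraries were scaled at 6 of the 9 genes, whereas htp-3, rec-8 and syp-1 were negative under both scalings. In CPM, counts scaled to the library total alone, all 9 genes were lower in every mutant library than in every wild-type library. Of all tested loci, 77.7% did not overlap on this scale, 65.5% lower and 12.2% higher in the mutants. The CPM of htp-1 were 127, 138 and 147 in xf58, xf60 and xf61, against 210, 219 and 208 in wild-type. Those of syp-1 were 12.95, 13.16 and 12.04 in xf58, xf60 and xf61, against 33.3, 30.7 and 38.8 in wild-type, the largest drop among the 9 genes on this scale. Together the 9 genes held 0.0337% ± 0.00115 (SD, n = 3) of all 22G-RNA counts in the mutants and 0.0571% ± 0.000583 (SD, n = 3) in wild-type.

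When scaled to total counts, edgeR called 2 of the 9 genes, both down-regulated, against 53.4% of all tested loci, with 44.7% down-regulated and 8.68% up-regulated. The 2 genes were syp-1, at −1.43 (adjusted p = 4.75e-04), and rec-8, at −1.03 (adjusted p = 0.00142). All 9 genes then had an adjusted p under 0.1 with a negative sign, at log2 fold changes between −1.43 and −0.56, where 78% of all tested loci had such a p in either direction. This scaling moved the median of all tested loci by −0.90, to −0.88. Relative to the median locus, the values were nearly the same under both scalings, at −0.54 with TMM factors and −0.55 with total counts for syp-1, at −0.15 under both for rec-8, and at 0.33 and 0.32 for him-3. This follows from the calculation, since a change of scaling shifts all loci by nearly the same amount, and is no separate result. The files hold no spike-in, so an absolute 22G-RNA level per animal was not measured.

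**Figure D2:**
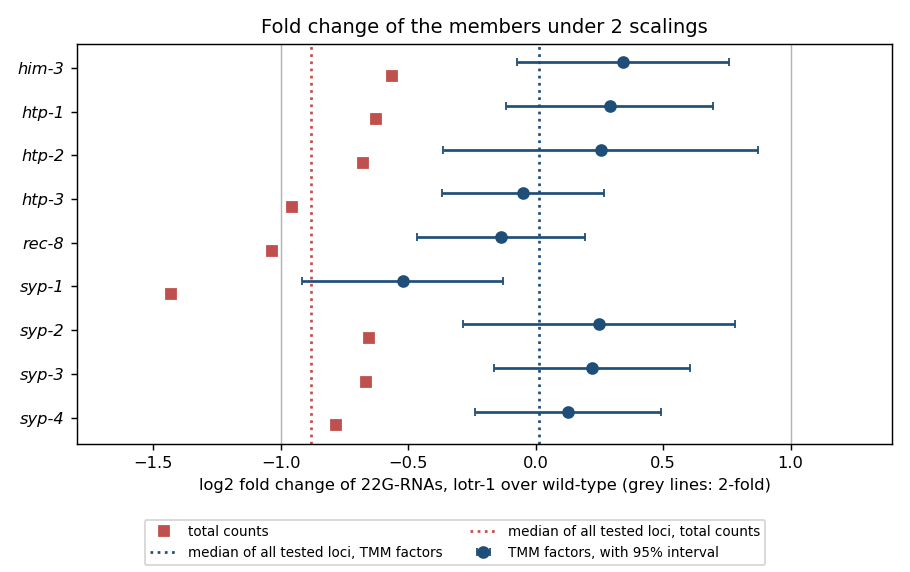
Log2 fold change of each gene in the lotr-1 mutants over wild-type, with TMM factors (circles, 95% interval) and with total counts (squares), and dotted lines at the median of all tested loci under each scaling. Under both scalings syp-1 is the lowest gene, at −0.52 and −1.43. Each gene keeps nearly the same distance to the median line, because a change of scaling shifts all loci by nearly the same amount.

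No allele moved any of the 9 genes by more than 2-fold from the wild-type mean. Over all tested loci, 30.5% were past 2-fold in xf58 (17.3% above and 13.2% below wild-type), 41.6% in xf60 (19% above, 22.6% below) and 41.5% in xf61 (19.4% above, 22.2% below), and 53% were past it in at least 1 allele. These comparisons rest on 1 library per allele and have no replicate check. The log2 changes of the 9 genes ranged from −0.68 to 0.40 in xf58, from −0.31 to 0.65 in xf60 and from −0.54 to 0.61 in xf61. Their medians were −0.12 in xf58, 0.22 in xf60 and 0.25 in xf61, whereas those of all tested loci were −0.02, −0.03 and −0.02. syp-1 was lowest in xf58 (−0.68), followed by xf61 (−0.54) and xf60 (−0.31), and rec-8 was at −0.19, −0.07 and −0.14 in the same order of alleles. At htp-1, xf58 was at −0.04 and the other alleles at 0.44 and 0.42. Across the 3 mutant libraries, the median SD of the log2 values was 0.22 for the 9 genes and 0.34 for all tested loci, and across the wild-type libraries it was 0.14 and 0.13.

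Without the xf58 library, 5 of the 9 genes had an adjusted p under 0.1 in edgeR's test, as did 70.3% of all loci then tested. The xf60 and xf61 libraries left in this test were the closest of the mutant pairs, and what part their smaller spread had in these calls was not tested. Among them him-3, htp-1, htp-2 and syp-4 were higher and syp-1 was lower, and none passed 2-fold. The log2 fold change of htp-1 was then 0.43 (adjusted p = 7.79e-04) and that of htp-2 was 0.49 (adjusted p = 0.00629).

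**Figure D3:**
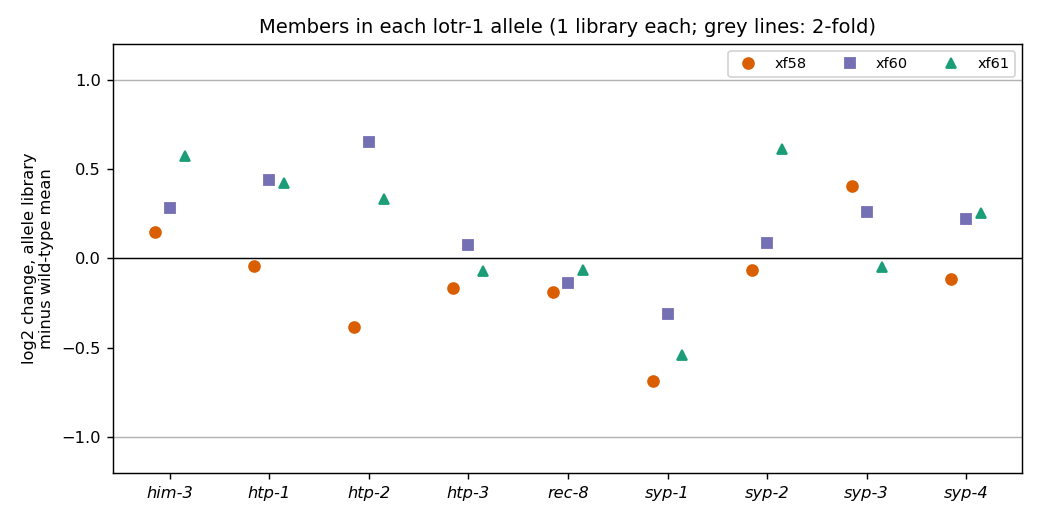
Log2 change of each gene in the xf58, xf60 and xf61 library relative to the wild-type mean, with grey lines at 2-fold. Every point lies between −0.68 and 0.65, and syp-1 is the 1 gene at which all alleles are below −0.3.

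Per kilobase of merged exons, the order of the genes in wild-type was led by htp-1, with 546 ± 18.3 normalized counts (SD, n = 3), at percentile 94.2 of 8550 tested protein-coding genes. him-3 followed with 129 ± 17.7, then htp-2 with 103 ± 12.6, syp-4 with 103 ± 6.69, syp-3 with 95.7 ± 4.22, htp-3 with 90.8 ± 3.69 and rec-8 with 79.7 ± 8.01. The last in order were syp-2, with 36.0 ± 4.06, and syp-1, with 35.5 ± 3.88, both below the median tested protein-coding gene at 46.3. From him-3 to htp-3, each gene overlapped its neighbor in this order across the wild-type libraries, and so did syp-2 and syp-1. Gaps without overlap separated htp-1 from him-3, htp-3 from rec-8, and rec-8 from syp-2. The gap between htp-3 and rec-8 was very narrow, with the lowest htp-3 library at 88.15 and the highest rec-8 library at 88.09. In the mutants htp-1 had 667 ± 119 normalized counts per kilobase and syp-1 had 24.7 ± 3.34 (SD, n = 3). The order rested in part on the length used. Per kilobase of coding sequence in wild-type, syp-1 had 73.8, above syp-2 with 61.4, and syp-3 had 133, above htp-2 with 121 and syp-4 with 116.

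htp-1 and htp-2 are close paralogs, and reads that match both equally well were placed at 1 of them at random. htp-1 held 87.1%, 82.0% and 84.9% of the counts of the pair in xf58, xf60 and xf61, against 82.9%, 83.8% and 85.6% in wild-type. The exact 95% binomial intervals reached from 78.9% to 89.8% over all 6 libraries, and the groups overlapped. The mean share was 84.6% ± 2.56 in the mutants and 84.1% ± 1.37 in wild-type (SD, n = 3), and a two-sided exact permutation test gave p = 0.8, where 3 libraries against 3 cannot go below 0.1. The number of reads exchanged between the paralogs was not measured.

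The other genes of meiotic chromosome metabolism were taken from a list of 65 symbols, of which 64 were matched and 62 were tested. Among these, 12 were called, or 19.4%, against 36.4% of all tested loci. Of them 3 were up-regulated (4.84%, against 18.8% of all tested loci) and 9 down-regulated (14.5%, against 17.6%). Their median log2 fold change was −0.18. Down-regulated genes were found in each of the 5 groups of this list. Of 16 genes of crossover formation, 4 were down-regulated and 2 were up-regulated (37.5% called, close to the share of all tested loci), and of 18 genes of double-strand breaks and strand exchange, 2 were down-regulated (11.1% called). Of 13 genes of homolog pairing, 1 was down-regulated and 1 up-regulated (15.4% called). In each of the other groups 1 gene was down-regulated, among 9 cohesin genes (11.1%) and 6 further genes tied to the synaptonemal complex (16.7%).

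**Figure D4:**
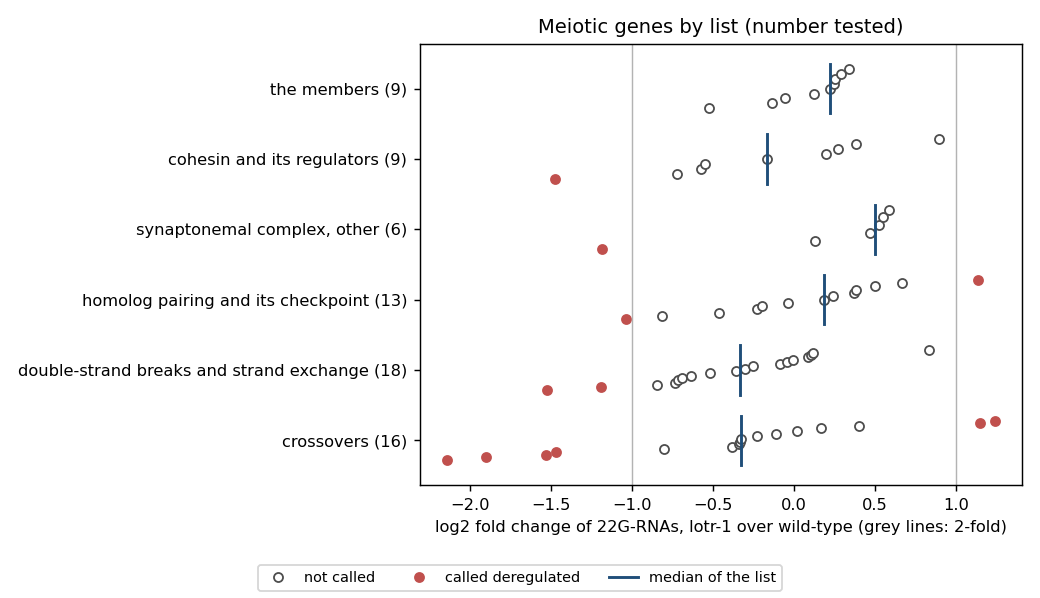
Log2 fold change in the lotr-1 mutants over wild-type of the 9 genes and of the other meiotic genes, 1 circle per tested gene, with called genes filled, a bar at the median of each list and grey lines at 2-fold. The 9 genes lie between −0.52 and 0.34, and the filled circles reach −2.14 at rmh-2 and 1.24 at mus-81.

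The largest decreases were in the crossover group. rmh-2, a homolog of a subunit that works with the BLM helicase, had 96.8, 22.4 and 26.9 normalized counts in xf58, xf60 and xf61, against a mean of 217 ± 8.05 in wild-type (SD, n = 3). All alleles were below wild-type and xf58 least so, and the gene was at −2.14 on the log2 scale (standard error 0.49, adjusted p = 0.00932). xf58 was also the highest allele at slx-1, a structure-specific nuclease subunit, with 217, 62.5 and 38.2 in xf58, xf60 and xf61, against 398 ± 30.2 in wild-type (SD, n = 3; log2 fold change −1.90, adjusted p = 0.0273). Its partner him-18, the SLX-4 scaffold, was at −1.47, and rtel-1, a helicase that limits crossovers, was at −1.53 with similar values in the alleles (38.7, 33.7 and 45.3, against 114 ± 4.71 in wild-type, SD, n = 3).

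rec-1, which affects where crossovers form, fell to 171, 163 and 156 normalized counts in xf58, xf60 and xf61, against 470.2 ± 31.6 in wild-type (SD, n = 3), a log2 fold change of −1.52 (adjusted p = 1.48e-04). scc-2, the cohesin loader, fell to 297, 215 and 195 normalized counts in the alleles, against 654 ± 4.59 in wild-type (SD, n = 3; log2 fold change −1.47, adjusted p = 7.2e-04). Every allele was below wild-type at both genes, and the spread of the libraries was smaller than the difference. rad-50, a subunit of the MRE-11 nuclease complex, was at −1.19 (adjusted p = 0.00824) and skr-1, a Skp1-related protein, at −1.18 (adjusted p = 0.0738) with 12, 5 and 2 counts in xf58, xf60 and xf61.

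Up-regulated genes were him-14, a MutS homolog of the crossover pathway, at 1.15 (adjusted p = 0.00354), mus-81, a nuclease subunit, at 1.24 (adjusted p = 0.00540) and zim-1, a pairing center protein of autosomes, at 1.14 (adjusted p = 9.51e-04). With total counts the log2 fold changes of these 3 genes were 0.23, 0.33 and 0.23, and none was called, so the increases were relative to the median locus. zim-1 is in a cluster on chromosome IV with him-8, the pairing center protein of the X chromosome, which was down-regulated at −1.04 (adjusted p = 0.0675). him-8 had 205, 94.5 and 58.1 normalized counts in xf58, xf60 and xf61, against 245 ± 13.2 in wild-type (SD, n = 3). zim-1 had 254, 338 and 300.3 in xf58, xf60 and xf61, against 135 ± 7.139 in wild-type (SD, n = 3). The exons of zim-1 overlap those of zim-2 on the same strand over 223 bases, and zim-2 had a log2 fold change of −0.20 (adjusted p = 0.304).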

How the data were processed

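The authors removed adapters (cutadapt 2.4) and aligned reads to the WBcel235 genome (Bowtie 1.2.2), placing reads with several best locations at 1 of them at random, and counted antisense reads of 22 bases starting with G with featureCounts 1.6.2. They deposited whole-number counts per gene or transposon family for each library, without normalization. Gene positions, exon lengths and exon overlaps were taken from Ensembl release 115 on the same build. The authors counted with an earlier Ensembl release, and exons that differ between the releases were not checked. Counts were filtered with filterByExpr, scaled with TMM factors and tested by quasi-likelihood in edgeR 4.0.16 (R 4.3.3) over all 9285 tested loci. Standard errors were derived from the log2 fold change and its F statistic, and 95% intervals from these and the test's degrees of freedom. Normalized counts are counts divided by effective library size, times the mean effective size. For single alleles a prior count of 2 was used. DESeq2 1.42.0 was an alternative. The procedure was run on simulated counts with the same spread in both groups and no difference in scaling between them. That simulation therefore does not test the scaling or the p-values of these data. The mutant libraries are of different strains. Nothing in the labels says that the wild-type libraries came from separate cultures, so their spread, which also enters the p-values, may be technical. Poisson and binomial intervals cover counting error only, and those of fold changes include the spread between libraries. The members, lists and alternatives were chosen with earlier results of these data known. All 9 members are named, and of the other meiotic genes those called, with a mean of at least 10 counts. Others given with values (zim-2, F13A7.14 and those of the closing section) were chosen after their values were seen. The symbol smc-1 was not matched. Permutation tests used scipy 1.17.1 and figures matplotlib 3.10.9.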

Additional observations from a re-analysis of the deposited data

Results flagged for a closer look

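At 3 of the 9 genes, alleles of lotr-1 lay on both sides of all wild-type libraries. How often this occurred among all tested loci was not counted, so it is not a trait of these genes. The difference between alleles was not tested, since each allele has 1 library. At htp-2 the log2 changes from the wild-type mean were −0.38 (xf58), 0.65 (xf60) and 0.33 (xf61). These rest on 70, 125 and 113 counts, with exact 95% Poisson intervals of 54.6 to 88.4 in xf58, 104 to 149 in xf60 and 93.1 to 136 in xf61. At syp-4 the values were −0.12 in xf58, 0.22 in xf60 and 0.25 in xf61. At htp-3 the log2 changes were −0.16 in xf58, 0.077 in xf60 and −0.069 in xf61. Here the margin in xf60 was narrow, with 224 normalized counts against 223 in the highest wild-type library. All changes at the 3 genes stayed within 2-fold.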

How the results depend on the processing

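The count of 0 deregulated genes among the 9 held with DESeq2 size factors, TMM factors computed on genes alone, no count filter, the DESeq2 Wald test, the tests at an adjusted p of 0.05 and against a 2-fold change, and without any 1 library. It was 2 with total counts and 1 (syp-1) without the 2-fold cutoff. Of all loci tested in each setting, 36.5% were called with DESeq2 size factors and 36.4% with TMM factors from genes alone. The shares were 23.6% without a count filter, 36.7% with the DESeq2 Wald test and 34.7% at an adjusted p of 0.05. The count of other meiotic genes, 12 of 62, was 33 with total counts, all down-regulated, 33 without the 2-fold cutoff and 5 with the test against a 2-fold change. With total counts 53.4% of all tested loci were called (44.7% down-regulated), close to the share of these genes. Without the 2-fold cutoff 58.9% of all tested loci were called, and 21.6% with the test against a 2-fold change. Leaving out 1 library gave 10 to 15, where 33.0% to 42.4% of all loci then tested were called. With total counts the sign turned at him-3 (−0.56), htp-1 (−0.63), htp-2 (−0.68), syp-2 (−0.65), syp-3 (−0.67) and syp-4 (−0.78), following the shift of all loci by −0.90. Without a count filter syp-4 was at −0.020 (edgeR adjusted p = 0.949). In this fit all 9 genes were lower by nearly the same amount, with him-3 at 0.19 and syp-1 at −0.67. TMM factors were computed anew on the unfiltered loci, and their part in this was not tested. Replicate numbers are shared by the groups, but same-numbered libraries did not deviate together (correlations 0.0083, 0.0339 and −0.0343). With the replicate number as a block, 0 of the 9 and 12 of the other genes were called, against 36.8% of all tested loci. In this fit syp-1 had a log2 fold change of −0.52 (adjusted p = 0.0836). Levels per possible antisense site and the sequence shared by htp-1 and htp-2 were not run, as no genome sequence was in hand, and coding length was used as a second length, chosen after seeing the data. Fold changes relative to the median locus were also added after seeing the data. Low counts limit syp-2 most, at 26 to 58 per library.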

Other observations

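The genes below were chosen after their values were seen. coh-3 and coh-4, close paralogs that encode further meiotic kleisins beside REC-8, were not called, with log2 fold changes of 0.27 (adjusted p = 0.257) and 0.39 (adjusted p = 0.163). coh-3 held 51.4%, 49.4% and 48.7% of the counts of the pair in xf58, xf60 and xf61, against 51.9%, 50.9% and 52.0% in wild-type. In every library the exact 95% binomial interval of this share included an even split, unlike that of htp-1 and htp-2. Reads that match coh-3 and coh-4 equally well were also placed at random, which draws the share toward an even split. The number of such reads was not measured for either pair. scc-1, the mitotic kleisin, had a log2 fold change of 0.20 (adjusted p = 0.294). The later described central region genes syp-5 and syp-6 were at 0.53 (adjusted p = 0.165) and 0.47 (adjusted p = 0.0368), both under 2-fold.

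zhp-2, a crossover regulator, lies 555 bases from lotr-1 on chromosome I. It had 177, 152 and 197 normalized counts in xf58, xf60 and xf61, against 302, 303 and 314 in wild-type, with no overlap and a log2 fold change of −0.80 (adjusted p = 0.00363), under the 2-fold cutoff. Its exons overlap those of D1081.6 on the same strand over 272 bases. zhp-3, 38437 bases from lotr-1, was at −0.33 (adjusted p = 0.104), and syp-3, 172106 bases away, at 0.22. Whether nearness to the edited gene bears on zhp-2 was not tested.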
